A study of Mus musculus with 2 samples.

Results

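The RNA levels, isoforms and alternative exons of 10 genes that shape the mitochondrial network by fusion and fission are described in adult mouse heart. The genes were chosen by symbol: Mfn1, Mfn2, Opa1, Oma1, Yme1l1, Dnm1l, Fis1, Mff, Phb and Phb2. They are 10 of the 55536 mouse genes listed, and their 76 isoforms are among 141767 listed transcripts. All 10 were found, and all stood well above the lowest level used here as expressed, 1 TPM in both animals. TPM is a deposited measure of abundance scaled to the library total and corrected for transcript length, so that levels of different genes can be set side by side.

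The tissue was heart of 2 adult female mice of the strain B6CASTF1/J, the first-generation hybrid of C57BL/6J and CAST/EiJ, aged 8 to 10 months. The labels give no treatment and no altered gene, so both animals form 1 group and no condition was compared. The labels number the animal of replicate 1 as 1 and that of replicate 2 as 3, and give both the same donor identifier. By the animal numbers they were counted as 2 animals, although the shared identifier leaves this uncertain. A value with ± is a mean with its SD over both animals (n = 2), and a pair of values gives replicate 1 and then replicate 2. The smallest two-sided p that an exact test over 2 animals allows is 0.5, and none is reported.

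Mitochondria join and divide through large GTPases. The mitofusins Mfn1 and Mfn2 join outer membranes and Opa1 joins inner membranes, while the dynamin Dnm1l is drawn from the cytosol by receptors on the outer membrane and constricts the organelle. Opa1 is itself cut by the inner membrane proteases Oma1 and Yme1l1, and the prohibitins Phb and Phb2 form ring complexes that organise the same membrane. Loss of mitofusins or of Dnm1l from cardiomyocytes is known to cause heart disease in mice.

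The libraries held 42223411 and 40553237 expected counts, that is, reads shared out among genes by a model. Each of the 10 genes held from 808 to 35719 of them in replicate 1 and from 715 to 30372 in replicate 2. All 6 cardiomyocyte markers were high, at means from 400 to 9141 TPM, and summed to 31600 TPM in replicate 1 and 27503 in replicate 2. Red blood cell markers differed more between the animals, with sums of 2426 and 1570 TPM. Fibroblast, endothelial, smooth muscle and macrophage markers were all present, at means from 1.68 to 113 TPM, whereas neither liver marker nor the lung marker reached 1 TPM. Of the skeletal muscle markers, Mylpf and Myh4 stood at means of 5.14 and 3.085 TPM and Myh1 at 0.22 TPM. The adipocyte markers Adipoq and Ucp1 stood at means of 0.97 and 1.09 TPM. The heart tissue thus mixes RNA of several cell types, and fewer cells of a type and less RNA per cell cannot be told apart.

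In order of level, Mfn2 led and the protease Oma1 came last. Among the 10721 protein-coding genes expressed in both animals, whose median was 7.95 ± 0.75 TPM, Mfn2 stood at percentile 98.1 and Oma1 at percentile 68.5. The median over the 10 genes was 59.8 ± 6.08 TPM. In the order Mfn2, Mfn1, Phb, Phb2, Fis1, Mff, Opa1, Dnm1l, Yme1l1 and Oma1, most neighbours were separated by more than the spread of the 2 animals. The ranges overlapped for 2 neighbouring pairs, Mfn1 with Phb and Mff with Opa1. A second, FASTQ-derived table of the same libraries, made without the alignments, gave the same gene at both ends. In it the ranges overlapped for Opa1 with Mff and for Yme1l1 with Oma1.

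**Figure D1:**
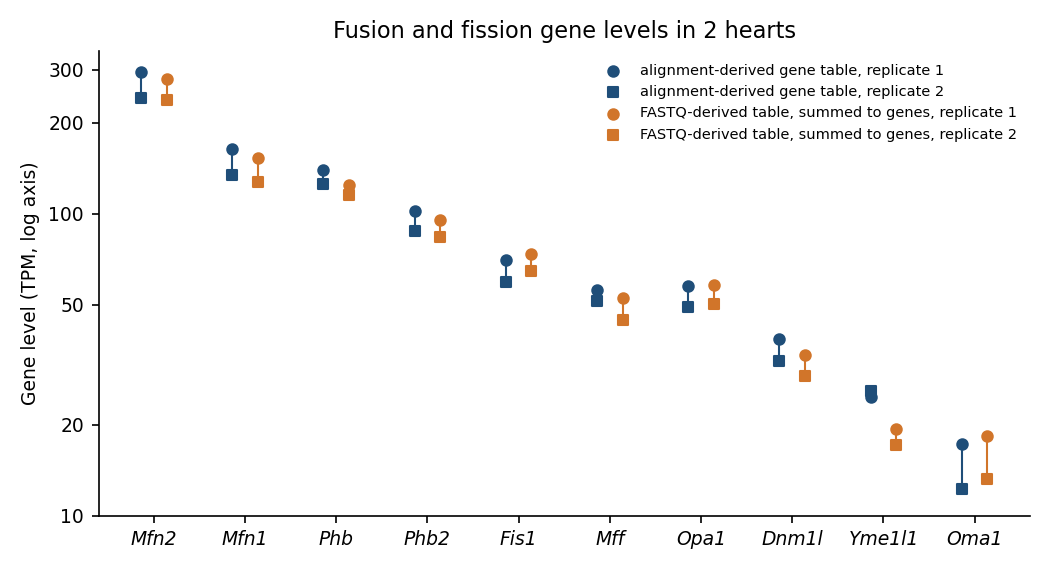
Levels of the 10 genes in TPM on a log axis, each animal as 1 point joined by a line to the other, from the alignment-derived gene table (blue) and the FASTQ-derived transcript table summed to genes (orange). Mfn2 lies highest at 295 and 241 TPM and Oma1 lowest at 17.3 and 12.2 TPM in the gene table, and Yme1l1 shows the widest gap between the tables.

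Both mitofusins, the GTPases of outer membrane fusion, were among the most abundant of the set. Mfn2 (ENSMUSG00000029020.13, mm10 chr4:147873599-147904704, minus strand) stood at 295 TPM in replicate 1 and 241 TPM in replicate 2, 268 ± 38.0 TPM. Mfn1 (ENSMUSG00000027668.13, chr3:32529465-32579239, plus strand) stood at 164 and 134 TPM, 149 ± 21.5 TPM. The animals did not overlap between the 2 genes: the lower Mfn2 value lay above the higher Mfn1 value. Mfn2 exceeded Mfn1 by 0.85 ± 0.004 on the log2 scale, 1.80-fold, with nearly the same ratio in each animal.

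The gap between the mitofusins widened when isoforms without a complete coding sequence were left out. A complete coding isoform is here one annotated as protein-coding with both ends of its coding sequence present. Such isoforms held 84.1% of the TPM of Mfn2 but 53.1% of that of Mfn1. Counted over them alone, Mfn2 stood at 244 and 207 TPM and Mfn1 at 84.3 and 73.5 TPM, a log2 ratio of 1.51 ± 0.03 or 2.85-fold. The FASTQ-derived table gave 1.38 ± 0.04 for the same ratio.

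Within Mfn1, the leading isoform Mfn1-202 held 32.0% and 34.0% of the gene's TPM. The other complete form, Mfn1-201, held 19.2% and 20.99% and has a coding sequence of the same length, 2223 bases. Most of the rest lay on short pieces. Mfn1-204, a fragment of 616 bases with an open coding end, held 26.7% and 24.3%, although it took only 6.68% ± 0.68 of the gene's counts. Mfn1-210, a retained-intron fragment of 246 bases, held 17.4% and 18.0% on 140 and 119 counts and was listed at 0 in the FASTQ-derived table. That table instead put 12.8% and 11.2% on another retained-intron fragment, Mfn1-205, which held 0.71% and 0% in the first. Short isoforms thus carried 45.2% of the TPM of Mfn1 but 8.42% of its counts; short means under 750 bases.

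Mfn2 was simpler. Mfn2-201, with a coding sequence of 2271 bases, held 80.7% and 84.1% of its TPM, and 70.4% and 69.3% in the FASTQ-derived table. The remainder was divided differently by the tables. The fragment Mfn2-206 held 10.8% and 8.08% in the alignment-derived table and 0.15% and 0% in the other, where Mfn2-207 held 18.7% and 17.6% and the complete form Mfn2-203 11.8% ± 1.76 on average. Of the 31-base stretches of Mfn2-201, only 2.74% occur in no other isoform of the gene, so few reads can set it apart from all other forms at once.

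Opa1 (ENSMUSG00000038084.16, chr16:29579334-29654884, plus strand), the inner membrane fusion GTPase, stood at 57.7 and 49.1 TPM, 53.4 ± 6.12 TPM. Mfn2 exceeded it 5.02-fold, by 2.33 ± 0.04 on the log2 scale. Alternative splicing near the start of its coding sequence is known to set which protease sites the protein carries. The annotation holds 2 alternative coding exons in this stretch whose lengths are multiples of 3, so that the reading frame is kept with or without them. They are shown because the isoforms of Opa1 differ by them. Here and in the sequences of Dnm1l and Mff, exon bases are in capitals and the 12 neighbouring transcript bases on each side in lower case, 5′ to 3′, from the GENCODE M21 transcripts (mm10).
Opa1 exon of 54 bases, chr16:29588823-29588876, plus strand: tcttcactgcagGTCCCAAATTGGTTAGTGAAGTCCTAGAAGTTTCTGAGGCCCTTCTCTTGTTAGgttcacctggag
Opa1 exon of 111 bases, chr16:29597586-29597696, plus strand: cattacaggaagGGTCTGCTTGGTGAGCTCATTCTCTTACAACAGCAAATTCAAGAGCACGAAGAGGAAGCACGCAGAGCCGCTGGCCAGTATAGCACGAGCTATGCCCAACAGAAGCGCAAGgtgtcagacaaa

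Inclusion of an exon is given as the share of TPM on coding isoforms that hold it among coding isoforms that span its place. It follows from the deposited isoform estimates, not from reads over splice junctions. The 54-base exon was included at 16.6% and 19.1%, 17.8% ± 1.76, and at 29.0% ± 1.76 by the FASTQ-derived table. The 111-base exon was included at 35.5% and 32.7%, 34.1% ± 2.01, and at 32.7% ± 3.12 by the other table. Both exons were thus in the minority of Opa1 TPM by these estimates in each animal and each table. The form that skips both exons is annotated with 6230 bases, and the others that span them with 3230, 3153 and 888. The part of these unequal annotated lengths in the estimates was not tested. The tables differed by more than the animals on the shorter exon and by less on the longer one.

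The form that skips both exons, Opa1-206, led with 58.3% and 58.7% of the gene's TPM and encodes 2880 coding bases. Opa1-207, which holds only the 111-base exon and is annotated with an open end, held 24.4% and 20.7%. Opa1-208, a fragment of 888 bases with both exons, held 10.8% and 11.4%. Opa1-201, complete and with only the 54-base exon, held 5.67% and 7.34%, and 16.0% and 20.02% in the FASTQ-derived table. Of these 4, only Opa1-206 has 31-base stretches of its own, 49.2% of them. Both isoforms with the 111-base exon are annotated as incomplete, and the share of complete coding isoforms in Opa1, 65.0% ± 1.5, leaves that exon out.

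Oma1 and Yme1l1, the proteases that cut Opa1, had the lowest levels of the 10 genes. Yme1l1 (ENSMUSG00000026775.9, chr2:23156369-23199260, plus strand) stood at 24.7 and 25.95 TPM, 25.3 ± 0.88 TPM. Oma1 (ENSMUSG00000035069.3, chr4:103313812-103371868, plus strand) stood at 17.3 and 12.2 TPM, 14.8 ± 3.6 TPM. Yme1l1 was the higher in each animal, by 0.51 and 1.09 on the log2 scale, 0.80 ± 0.41. This was the least repeatable ratio of the pairs examined. By the FASTQ-derived table it was 0.23 ± 0.21, with Yme1l1 at 19.4 and 17.2 TPM and Oma1 at 18.3 and 13.2 TPM.

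Each of the 2 genes owed part of its value to 1 short non-coding transcript. Oma1-203, of 426 bases, held 22.4% of the TPM of Oma1 in replicate 1 on 42.6 counts and had none in replicate 2. The FASTQ-derived table gave it 29.2% and 0.88%. The full-length form Oma1-201 held 71.3% and 94.2%, and its level was close in both animals, 12.3 and 11.5 TPM. Yme1l1-206, of 628 bases, held 28.1% and 40.5% of the TPM of Yme1l1 on 123 and 188 counts, but 2.18% and 3.77% in the FASTQ-derived table on 6.28 and 9.23 counts. The full-length form Yme1l1-201 held 64.3% and 56.3%, and 82.6% and 89.7% in the FASTQ-derived table. Over complete coding isoforms alone, Yme1l1 stood at 15.9 and 14.6 TPM and the ratio to Oma1 was 0.36 ± 0.01, and 0.43 ± 0.02 by the other table. On that measure the spread between the animals was far smaller. Both tables placed Yme1l1 above Oma1 in each animal on that measure, as they did over all isoforms.

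Dnm1l (ENSMUSG00000022789.15, chr16:16312230-16358959, minus strand), the GTPase that divides mitochondria, stood at 38.5 and 32.6 TPM, 35.5 ± 4.21 TPM. Its RNA is known to be spliced by tissue, with optional exons in the part for the variable domain and in the GTPase domain. The annotation holds 3 alternative coding exons that keep the frame, 2 of them neighbours near the end of the coding sequence and 1 near its start. They are shown to let their inclusion be tied to sequence.
Dnm1l exon of 33 bases, chr16:16318445-16318477, minus strand: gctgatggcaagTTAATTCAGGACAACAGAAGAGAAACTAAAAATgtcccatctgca
Dnm1l exon of 78 bases, chr16:16318764-16318841, minus strand: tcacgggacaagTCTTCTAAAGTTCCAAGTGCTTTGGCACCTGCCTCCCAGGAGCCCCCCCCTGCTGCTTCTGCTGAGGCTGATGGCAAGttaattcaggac
Dnm1l exon of 39 bases, chr16:16342697-16342735, minus strand: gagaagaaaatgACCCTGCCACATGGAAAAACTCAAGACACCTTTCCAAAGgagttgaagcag

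The exon of 39 bases near the start was nearly always skipped, with inclusion at 2.11% and 1.83% and at 2.59% ± 0.12 by the FASTQ-derived table. The exon of 33 bases was included at 24.9% and 30.8%, 27.9% ± 4.10. The exon of 78 bases was included at 17.3% and 20.7%, 19.0% ± 2.39. The FASTQ-derived table placed both higher, at 42.4% ± 6.16 and 25.99% ± 3.02. The annotated isoform with the 78-base exon also holds the 33-base one, so inclusion of the latter cannot be the lower of the 2. Both were in the minority in each table and animal.

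The isoform without any of the 3 exons, Dnm1l-201, led with 65.0% and 59.2% of the TPM of the gene. Dnm1l-203, with both of the neighbouring exons, held 15.5% and 18.2%. Dnm1l-204, with the 33-base exon alone of the 3, held 0% and 5.47%, and 6.12% and 16.1% in the FASTQ-derived table. Dnm1l-205, a coding form of 1074 bases that does not reach these 2 exons, held 9.09% and 10.9%, against 0.84% and 1.28% in the other table. The isoforms of Dnm1l are long and overlap almost throughout: 0.28% of the 31-base stretches of Dnm1l-201 occur in no other isoform. Complete coding isoforms held 98.7% of the gene's TPM, among the highest shares of the set.

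Of the outer membrane proteins that bind Dnm1l, Fis1 was higher than Mff. Fis1 (ENSMUSG00000019054.13, chr5:136953275-136966234, plus strand) stood at 70.5 and 59.6 TPM, 65.0 ± 7.68 TPM. Mff (ENSMUSG00000026150.14, chr1:82724890-82752394, plus strand), the receptor with the larger known part in recruiting Dnm1l in mammals, stood at 55.8 and 51.4 TPM, 53.6 ± 3.12 TPM. Every Fis1 value lay above every Mff value, but the lower Fis1 value exceeded the higher Mff value by only a few TPM. The log2 ratio of Mff to Fis1 was −0.28 ± 0.09, and −0.98 ± 0.02 over complete coding isoforms.

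Fis1 was nearly a single transcript, with Fis1-201 at 96.0% and 97.4% of its TPM. Mff was the most divided gene of the set, with 16 isoforms of which the leader, Mff-202, held 23.8% and 20.2%. Mff-212 held 20.9% and 19.0% and Mff-201 14.3% and 15.3%. These 3 complete forms have coding sequences of 873, 948 and 717 bases, and they differ in part by optional exons. Mff-201 lacks an exon of 159 bases that Mff-202 holds, but its coding sequence is not shorter by exactly that length. The annotation holds 4 optional exons of Mff that keep the frame, shown here because the main isoforms hold different sets of them.
Mff exon of 75 bases, chr1:82737013-82737087, plus strand: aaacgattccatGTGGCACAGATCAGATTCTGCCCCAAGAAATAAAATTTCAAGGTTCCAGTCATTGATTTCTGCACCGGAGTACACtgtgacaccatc
Mff exon of 159 bases, chr1:82741818-82741976, plus strand: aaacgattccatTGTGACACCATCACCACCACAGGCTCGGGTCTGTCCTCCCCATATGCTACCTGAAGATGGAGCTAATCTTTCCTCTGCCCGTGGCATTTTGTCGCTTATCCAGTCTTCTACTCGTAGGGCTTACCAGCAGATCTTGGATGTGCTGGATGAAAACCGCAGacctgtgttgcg
Mff exon of 33 bases, chr1:82745524-82745556, plus strand: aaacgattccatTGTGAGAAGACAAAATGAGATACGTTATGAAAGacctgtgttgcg
Mff exon of 60 bases, chr1:82747083-82747142, plus strand: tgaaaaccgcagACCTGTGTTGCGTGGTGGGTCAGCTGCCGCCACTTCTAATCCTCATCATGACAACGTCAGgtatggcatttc

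Inclusion of the Mff exons spanned almost the whole scale. The exon of 60 bases was included at 84.0% and 91.4%, 87.7% ± 5.25. The exon of 159 bases was included at 52.3% and 58.3%, 55.3% ± 4.24. The exon of 75 bases was included at 23.4% and 23.2%, 23.3% ± 0.19, and the exon of 33 bases at 11.9% and 8.70%, 10.3% ± 2.24. The order of the 4 exons was the same in each animal and in the FASTQ-derived table, which gave 92.4% ± 3.36, 56.3% ± 2.45, 25.3% ± 0.62 and 10.5% ± 3.74. The tables differed less on each of these exons than on the shorter exon of Opa1. Mff-202 and Mff-212 both hold the exons of 159 and 60 bases, and Mff-212 also the one of 75 bases, while Mff-201 holds only the one of 60 bases.

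Smaller forms of Mff moved more between the animals. Mff-204 held 11.99% in replicate 1 and 2.18% in replicate 2, and Mff-203 held 3.82% and 14.8%. They are fragments of 435 and 440 bases with open coding ends and no 31-base stretch of their own. Mff-210, a non-coding form of 586 bases, held 7.58% and 13.3%. Complete coding isoforms together moved less, from 63.3% to 59.3%.

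**Figure D2:**
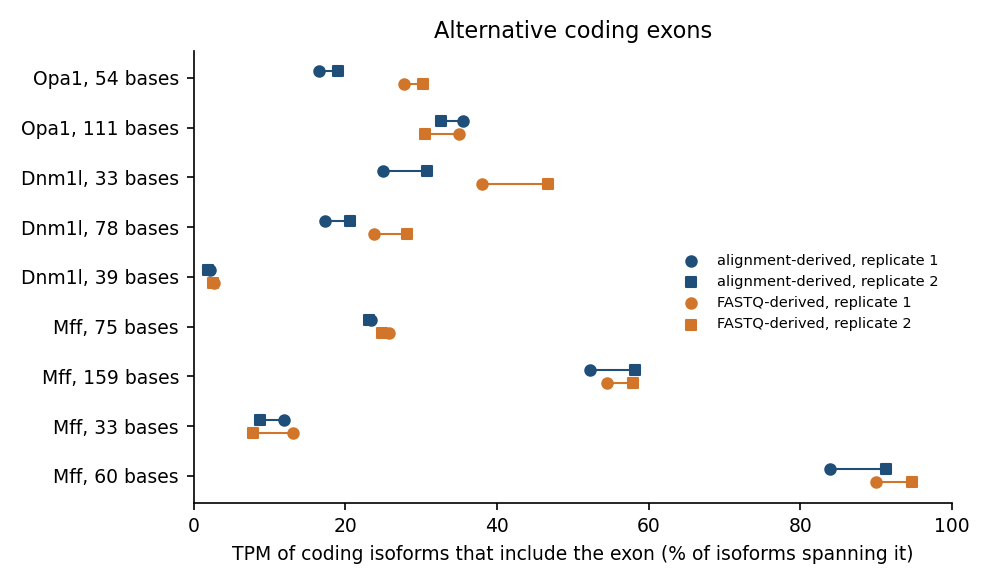
Inclusion of the 9 alternative coding exons that keep the reading frame, in percent of the TPM of coding isoforms that span each exon, with 1 point per animal from the alignment-derived (blue) and FASTQ-derived (orange) transcript tables. Inclusion runs from 1.97% for the 39-base exon of Dnm1l to 87.7% for the 60-base exon of Mff in the alignment-derived table, and the 2 tables lie farthest apart on the 54-base exon of Opa1 and the 33-base exon of Dnm1l.

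The prohibitins, partners in ring complexes of the inner membrane, followed the mitofusins in level. Phb (ENSMUSG00000038845.11, chr11:95666957-95680773, plus strand) stood at 139 and 126 TPM, 133 ± 9.82 TPM. Phb2 (ENSMUSG00000004264.17, chr6:124712336-124716950, plus strand) stood at 102 and 87.9 TPM, 94.8 ± 9.81 TPM. Phb2 was lower than Phb in both animals, by a log2 ratio of −0.49 ± 0.04. The direction depended on which isoforms were counted. Over complete coding isoforms Phb stood at 78.6 and 66.9 TPM and Phb2 at 97.9 and 85.7 TPM, and the ratio turned to 0.34 ± 0.03, and to 0.40 ± 0.001 in the FASTQ-derived table.

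Phb2 was carried by 1 form, Phb2-201, at 96.2% and 97.5% of its TPM. In Phb the complete form Phb-204 held 56.4% and 53.3%, and both tables gave it nearly the same share. The rest lay on 2 short forms that the tables filled differently. Phb-203, a non-coding transcript of 414 bases, held 21.3% and 32.6% in the alignment-derived table and 0.31% and 0% in the other. Phb-201, of 724 bases with an open coding end, held 22.0% and 13.7%, against 42.0% and 44.6%.

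The Phb values also share sequence with another gene. Of the 2774 different 31-base stretches of Phb transcripts, 33.8% also occur in transcripts of other genes, the largest share among the 10. Most of these, 758, lie in Gm7666, a transcribed processed pseudogene at chr15:6653923-6654741 on the plus strand, and 309 in Fyb, the gene within which that pseudogene lies. Gm7666 has 819 bases. It spans the Phb coding sequence from its first base and differs from it at 1 base, A231G, where the Phb base comes first and positions are counted from the first base of the Phb coding sequence. The difference is shown in capitals within 31 bases.
Phb: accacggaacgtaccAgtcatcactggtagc
Gm7666: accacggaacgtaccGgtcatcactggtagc

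Only reads over that base, over the ends of the copy or in the other parts of Phb can tell the 2 genes apart. Gm7666 was listed at 76.7 and 72.6 TPM, 74.6 ± 2.93 TPM, on 1855 and 1769 counts that are not whole numbers. In the FASTQ-derived table it stood at 72.8 and 65.0 TPM. Phb and Gm7666 together stood at 216 and 198 TPM, 207 ± 12.7 TPM, between Mfn2 and Mfn1. The log2 ratio of Phb2 over Phb with Gm7666 added was −1.13, against −0.49 for Phb alone. The animals also carry CAST/EiJ alleles, and whether an allele of Phb bears the other base was not tested. Of the other 9 genes, Dnm1l shares 5.95% of its stretches, mostly with the processed pseudogene Gm13719, which was listed at 0 TPM. Phb2 shares 4.00%, mostly with a small nucleolar RNA, Gm23547, at 17.7 TPM. Opa1, Oma1 and Fis1 share none.

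Set against one another, fusion genes outweighed the fission GTPase in RNA level. The summed TPM of Mfn1, Mfn2 and Opa1 exceeded that of Dnm1l 13.2-fold, by 3.73 ± 0.03 on the log2 scale, and Mfn2 alone exceeded Dnm1l 7.54-fold, by 2.91 ± 0.03. A ratio was called one-sided where it reached 2-fold in the same direction in both animals and its mean was above 3 SD. By that rule 3 of 11 pairs were one-sided: these 2 and Mfn2 over Opa1. All 3 hold Mfn2 on the higher side, so they are not separate results. Fis1 exceeded Dnm1l 1.83-fold, by 0.87 ± 0.0004, and passed 2-fold only in the FASTQ-derived table, at 1.13 ± 0.04. RNA levels give no measure of the amount or activity of the proteins.

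The smaller ratios rested on which isoforms were counted. Opa1 exceeded Dnm1l by 0.59 ± 0.005 and Mff exceeded it by 0.60 ± 0.09 over all isoforms. Over complete coding isoforms the same ratios were −0.015 ± 0.032 and −0.091 ± 0.014, and 0.20 ± 0.07 and 0.19 ± 0.08 in the FASTQ-derived table. Dnm1l itself hardly moved, from 35.5 to 35.1 TPM, since nearly all its isoforms are complete. Complete means without an open end and not full length. Dnm1l-205 was kept with 663 coding bases, while Opa1-207 was left out with 2993, so these ratios also rest on how the isoforms are annotated. The summed fusion genes still exceeded Dnm1l 9.66-fold over complete coding isoforms. Phb2 moved from place 4 to place 2 in the order, and Phb from place 3 to place 4 in the alignment-derived table and to place 5 in the other, while Mfn2 stayed highest and Oma1 lowest in both.

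**Figure D3:**
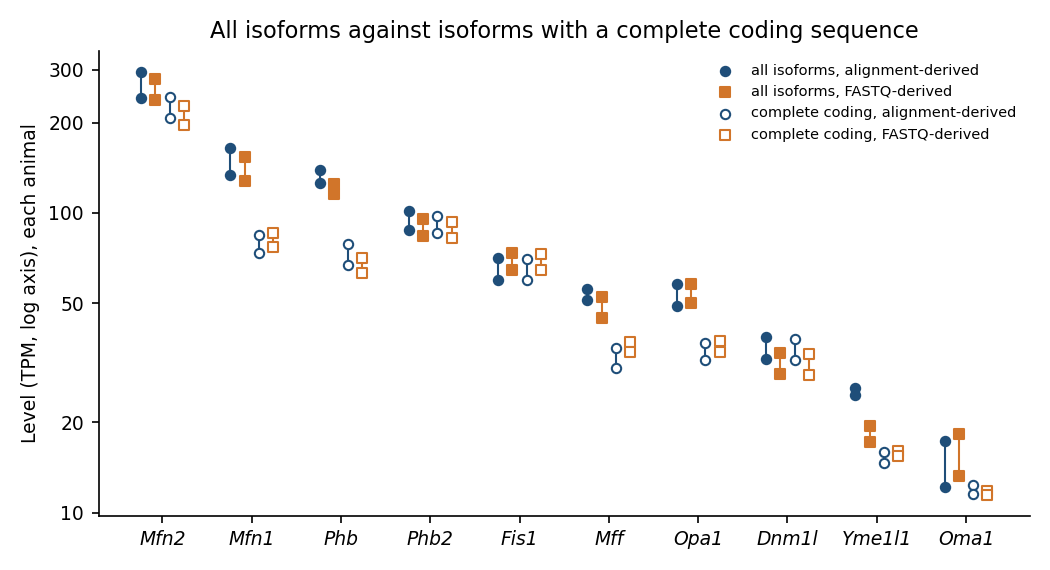
Levels of the 10 genes on a log TPM axis over all isoforms (filled) and over isoforms with a complete coding sequence (open), 1 point per animal, from the alignment-derived (blue) and FASTQ-derived (orange) tables. Phb2, Fis1 and Dnm1l keep their level, whereas Mfn1 falls from a mean of 149 to 78.9 TPM and Phb from 133 to 72.7 TPM, which puts Phb2 above both.

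No gene of the set differed 2-fold between the animals. For each gene the log2 ratio of replicate 2 over replicate 1 was taken from TPM plus 0.1 and centred on the median over 11876 compared genes, −0.18. Of those genes 1.41% were 2-fold or more apart, and 0 of 10 members were. Before centring, 9 of 10 were lower in replicate 2, where 79.3% of all compared genes were lower. After it 7 of 10 lay below 0, as 50% of all compared genes do by construction. The members ran from −0.32 for Oma1 to 0.25 for Yme1l1 with a median of −0.05, and the other 8 lay between −0.11 and 0.06. The mitofusins and Opa1 stood at −0.11, −0.11 and −0.05, and Dnm1l, Fis1 and Mff at −0.06, −0.06 and 0.06, so the values of the fusion and fission genes overlapped.

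In TPM of the gene tables the 2 widest differences were those of the proteases. In the FASTQ-derived table Oma1 again stood at −0.32, but Yme1l1 at −0.03 and Mff at −0.09, both opposite in sign to the gene tables. At a threshold of 1.2-fold Oma1 was the only member past it, 1 of 10, against 26.4% of compared genes. By expected counts scaled with TMM, a measure of sequencing depth that is not divided by isoform length, Oma1 differed by −0.01 and Yme1l1 by 0.08, and the widest difference was that of Dnm1l, −0.09. The values of the short isoforms of both genes, given above, moved with the TPM differences; their part in them was not tested apart from the levels over complete coding isoforms. The deposited credibility bounds, which cover the assignment of reads and not variation between animals, were apart after centring for 1 of 10 members, Mfn2, against 12.8% of compared genes. Before centring, marker sums of cardiomyocytes, fibroblasts, endothelium, macrophages and red blood cells were lower in replicate 2, and those of smooth muscle higher, at 18.6 and 23.2 TPM. Sums of skeletal muscle and adipocyte markers were also higher there, at 8.17 and 8.72 TPM and at 1.65 and 2.47 TPM. The part of all these cell types in the differences between the animals was not tested.

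**Figure D4:**
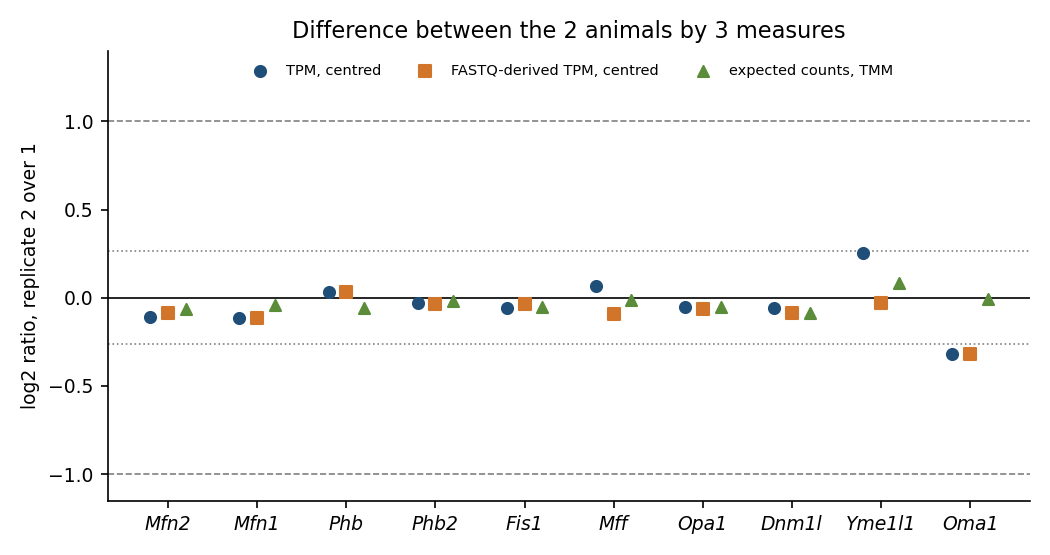
Log2 ratio of replicate 2 over replicate 1 for each gene by TPM and FASTQ-derived TPM, both centred on all compared genes, and by expected counts scaled with TMM; dashed lines mark 2-fold and dotted lines 1.2-fold. No point reaches 2-fold, and the TPM points of Oma1 (−0.32) and Yme1l1 (0.25) lie farthest from 0, while their count-based points lie at −0.01 and 0.08.

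By share of TPM, the leading isoform of all 10 genes was the same in both animals and in both tables, and it was a complete coding isoform. Among 9853 expressed protein-coding genes with several isoforms, the leading isoform differed between the animals in 13% and between the tables in 12%, and it lacked a complete coding sequence in 8.83%, or 10.4% by the FASTQ-derived table. The share of at least 1 isoform, the leader included, moved by 10 percentage points or more between the animals in 4 members, Mff, Yme1l1, Oma1 and Phb, against 42.2% of those genes. In the FASTQ-derived table it did so in 1 member, Oma1, against 46.1%. In Oma1 the leader itself moved, from 71.3% to 94.2%, and from 64.2% to 86.9% in the FASTQ-derived table. By counts of the alignment-derived table the leader was not the same in both animals for Mfn1 and Mff. Mfn1-202 held 4762 counts against 4747 for Mfn1-201 in replicate 1, and 4141 against 4248 in replicate 2. Mff-202 held 800 against 780 for Mff-212 in replicate 1, and 632 against 658 in replicate 2.

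The share of complete coding isoforms varied widely among the members. In Fis1, Dnm1l and Phb2, complete coding isoforms held 99.8%, 98.7% and 96.9% of TPM, and in Mfn2 84.1%. Oma1 stood at 71.3% and 94.2% in the 2 animals. In Mff, Yme1l1, Mfn1, Opa1 and Phb they held under 80% in both animals, 5 of 10 members against 38.4% of the 9853 genes. The FASTQ-derived values gave 4 of 10, all of these but Yme1l1, against 43.5%, so in neither table was the members' count far from that of all genes. The median share was 73.9% over the members and 83.8% over all those genes, and 78.7% and 79.8% in the FASTQ-derived table. What filled the remainder differed by gene. It was open-ended coding isoforms in Mfn2 and Opa1, at 15.8% and 33.6%. In Mfn2 these had 685 and 708 bases, whereas in Opa1 the long form Opa1-207, of 3153 bases, held 22.6%. It was non-coding transcripts in Yme1l1 and Oma1, at 39.7% and 17.2%, and both kinds in Mfn1 and Mff. In Phb it was both kinds in the alignment-derived table, with 27.3% non-coding, and open-ended coding fragments at 43.3% in the FASTQ-derived table, with 0.92% non-coding.

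**Figure D5:**
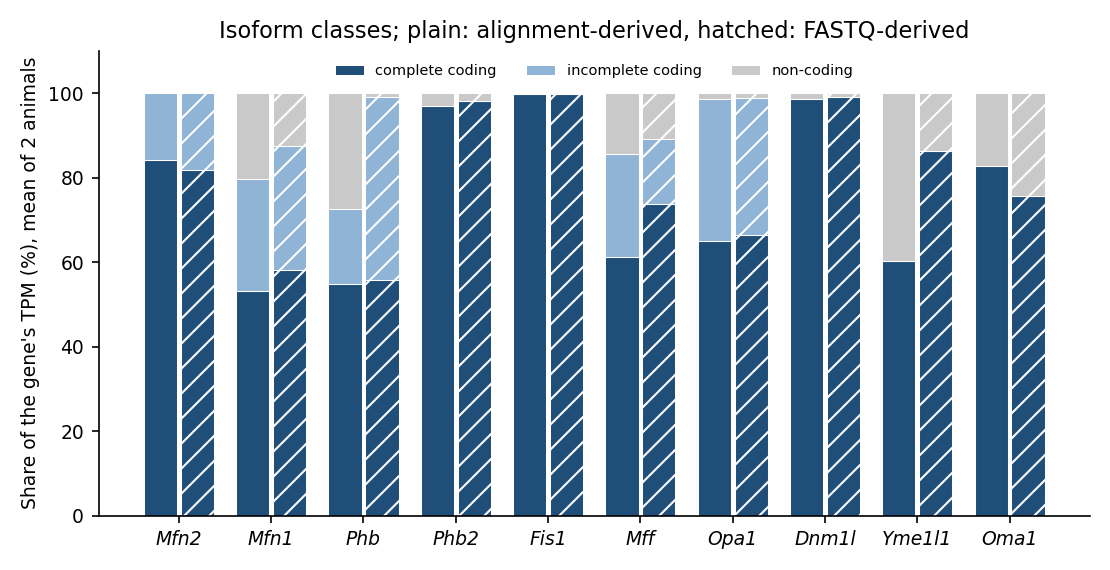
Share of each gene's TPM, mean of 2 animals, on isoforms with a complete coding sequence (dark), coding isoforms with an open end (light) and non-coding isoforms (grey), in the alignment-derived (plain) and FASTQ-derived (hatched) tables. Complete coding isoforms run from 53.1% in Mfn1 to 99.8% in Fis1, and the non-coding share of Yme1l1 is 39.7% in the first table and 13.8% in the second.

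The 2 tables gave similar totals for the members despite these divisions. None of the 10 was 2-fold apart between the tables in both animals, against 5.21% of 12374 genes. The widest gap was that of Yme1l1, lower in the FASTQ-derived table by a log2 difference of −0.35 and −0.59. For the other 9 the difference lay between −0.21 and 0.12.

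The wider machinery around these genes was nearly all expressed. Of 55 further genes listed by role, 51 reached 1 TPM in both animals, against 48.7% of all protein-coding genes. Of the 52 that could be compared, 0 differed 2-fold between the animals, close to the 1.41% of all compared genes. Other fusion and fission factors were the least even list, with 15 of 19 expressed and a median of 9.25 ± 0.97 TPM. Its highest were Sh3glb1, a membrane-bending protein, at 124 ± 5.84 TPM and Mtfr1l at 64.1 ± 6.17 TPM. Mtfr2, Gdap1 and Pld6 were under 1 TPM in both animals, and Dnm3 stood at 0.97 and 1.29 TPM. Mief1 and Mief2, further receptors of Dnm1l, stood at 9.25 ± 0.97 and 12.6 ± 1.5 TPM, below both Fis1 and Mff.

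Genes that build cristae, the folds of the inner membrane, had the highest median, 82.2 ± 4.91 TPM, with 10 of 10 expressed. Minos1 and Immt, core parts of the complex at cristae junctions, stood at 232 ± 35.3 and 217 ± 18.8 TPM. The inner membrane proteases and their partners had a median of 34.4 ± 2.33 TPM with 10 of 10 expressed, led by the protease subunit Afg3l2 at 54.0 ± 4.63 TPM and Dnajc19 at 48.8 ± 1.69 TPM. Both stood above Yme1l1 and Oma1. The 5 genes of cardiolipin synthesis and remodelling, which makes the lipid that Opa1 binds, had a median of 7.01 ± 0.08 TPM, with Taz at 16.4 ± 1.33 and Ptpmt1 at 12.2 ± 1.55 TPM.

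Among 6 ubiquitin and kinase regulators, Pink1, the kinase that marks damaged mitochondria, stood at 312 ± 28.7 TPM, above Mfn2 in both animals. Akap1, an outer membrane anchor for a kinase that acts on Dnm1l, followed at 39.3 ± 3.28 TPM, and the list's median was 26.03 ± 2.19 TPM. Genes of mitochondrial transport had a median of 45.7 ± 3.78 TPM with 5 of 5 expressed, led by the motor adaptors Trak1 and Trak2 at 112 ± 14.9 and 84.0 ± 13.1 TPM. Against these lists the median of the 10 members, 59.8 TPM, lay below that of the cristae genes and above those of the other 5.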

How the data were processed

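Total RNA of 2 hearts was sequenced. Per the labels' protocols a directional library kit was used on 300 ng of RNA with ribosomal RNA reduced and ERCC spike-ins added. For each library the authors deposited a gene table and a transcript table derived from alignments to the transcriptome and a transcript table derived from a FASTQ file, with the assembly mm10 and the annotation GENCODE M21, per the deposited description files. The sources used here name no aligner or quantifier and do not say whether counting used strand. Per the file headers the values are expected counts (estimated counts that need not be whole), TPM and its credibility bounds at an unstated level, and the percent of a gene's expression held by each isoform; isoform shares were recomputed here from TPM. The reference is the C57BL/6J genome, and reads of CAST/EiJ alleles may have been assigned less well.

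Gene tables were used as deposited. FASTQ-derived TPM were summed to genes, and isoform classes came from the GENCODE M21 annotation. Log2 ratios between animals used TPM + 0.1 over genes that averaged 1 TPM or more and held 20 or more expected counts in all, so they understate differences of low genes. Pair ratios used log2(TPM + 0.01) and list medians were also taken as log2(TPM + 1). Alternatives scaled the rounded expected counts with TMM (edgeR 4.0.16) and size factors (DESeq2 1.42.0) in R 4.3.3; the rest was computed in Python 3.11.15. With 1 group no model was fitted. Depth was 42223411 and 40553237 expected counts, while mouse transcripts of the FASTQ-derived tables summed to 43716083 and 41411342.

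The genes, lists, pairs and thresholds were chosen with earlier results of these data known. The text names all 10 genes, their isoforms holding at least 10% of TPM on average in either transcript table, and, of each wider list, the 2 highest genes, those under 1 TPM in both animals and those 2-fold apart. Alternative exons, Mief1, Mief2, Dnm3, Gm7666 and other genes sharing sequence were added after their values were seen. So were the isoforms Mfn2-206, Dnm1l-205, Mff-203 and Mff-204.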

Additional observations from a re-analysis of the deposited data

How the results depend on the processing

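Each of the 10 genes held 715 or more expected counts in each animal, but isoform shares rest on models that share out reads. Short isoforms take large shares of TPM on few counts, and the gene levels in TPM include them. A count was taken as kept within 1.5 times its value, and any other value within 1 SD of the 2 animals, a limit that is narrow where the animals lie close. With 2 animals, each value lies within 1 SD of their mean by construction. Leaving out 1 animal therefore could not move a level, a ratio or a share, and such results are among those kept. By that measure 30 of 35 recomputed main results were kept and 5 moved, and of 202 values of single genes, ratios or shares 112 were kept, 86 moved and 4 reversed. Among the counts kept, 44 genes of the wider lists reached 5 TPM, against 51 at 1 TPM, and 4 ratios were one-sided in the FASTQ-derived table, against 3. Phb2 over Phb moved to -1.13 with Gm7666 added to Phb. The median level of 59.8 TPM became 168 TPM when TPM was rescaled to nuclear protein-coding genes, and 50.03 and 51.4 TPM over complete coding isoforms in the alignment-derived and FASTQ-derived tables, an alternative chosen after seeing the data. At 1.2-fold, 1 gene differed between the animals in place of 0. In the FASTQ-derived table, 5 ratios over complete coding isoforms were one-sided in place of 3. Over complete coding isoforms the log2 ratio of Phb2 over Phb reversed to 0.34, and to 0.40 in the FASTQ-derived table. That of Mff over Dnm1l reversed to -0.091 and that of Opa1 over Dnm1l to -0.015 in the alignment-derived table only. In the FASTQ-derived table these 2 ratios stayed above 0, at 0.19 and 0.20. Leaving out 1 animal at a time gave medians from 55.5 to 64.1 TPM, 3 to 4 one-sided ratios and 51 to 52 expressed genes of the wider lists. It also gave 10 to 10 genes whose leading isoform by TPM was complete coding, and 0 to 0 genes apart between the tables. No paired analysis was possible because both animals form 1 group.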
